A study of Mus musculus with 22 samples.

Results

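Loss of STAT3 from astrocytes was followed in both kinds of RNA taken from the same injured spinal cords: RNA bound to tagged astrocyte ribosomes (HA IP) and the RNA left unbound in the same tissue (flow-through). The quantity described here is the HA IP level minus the flow-through level of the same animal, and how that within-animal difference changed with genotype. The 14 libraries of injured animals were used, of 22 in the series, chosen by their labels and paired by the animal number in their titles. They come from 4 wild-type (WT SCI) and 3 STAT3-deleted animals (STAT3-CKO SCI), with 1 HA IP and 1 flow-through library each. All 7 were young adult female mice with the mGFAP-Cre-RiboTag alleles, so the WT SCI animals carry the Cre and the ribosome tag too. The STAT3-CKO SCI animals also carried STAT3-LoxP. Every animal had a severe crush at thoracic level 10 and was sampled 14 days later, when the central 3 mm of the lesion was taken. The Cre is driven by a mouse Gfap promoter, so tag and deletion follow past or present activity of that promoter, and Gfap is itself among the genes that differed most between the genotypes.

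STAT3 is a transcription factor that cytokines of the interleukin-6 family activate through receptors with the gp130 subunit and JAK kinases. Once phosphorylated it enters the nucleus and binds DNA as a dimer, and one of its targets, Socs3, feeds back to shut the receptor off. In injured spinal cord, astrocytes with active STAT3 enlarge, raise intermediate filaments and secreted inhibitors of proteases, and form a border around the lesion. Interferons, a separate family of cytokines, raise genes of antigen presentation and defence. The unbound fraction holds RNA of all cells of the lesion, astrocytes included.

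The HA IP libraries held 31574207 to 46055612 counts (WT SCI) and 31292491 to 37970557 counts (STAT3-CKO SCI), and the flow-through libraries 3898755 to 7189443 and 4396861 to 8399656. Ribosomal RNA (Rn45s) took 89.0% to 96.2% of the HA IP counts of WT SCI, against 52.2% to 89.2% for STAT3-CKO SCI. Within an animal both fractions held nearly the same share: HA IP minus flow-through was between −0.01 and 1.24 percentage points in WT SCI and between −2.15 and 2.23 in STAT3-CKO SCI. Outside 3 rows of ribosomal reads, usable counts ran from 91626 (flow-through of animal 9935) to 17348247 (HA IP of animal 270), and were mostly lower in WT SCI, so depth and genotype cannot be told apart. Levels are given as CPM, the counts scaled to the library's usable total after TMM scaling, and 3 counts stood at 29.6 CPM in the shallowest library. Values per animal are always given in the order 9935, 9874, 9843 and 9596 for WT SCI, then 186, 531 and 270 for STAT3-CKO SCI. In bulk RNA, fewer cells of a type and less RNA per cell cannot be told apart. Some low genes had identical counts in both fractions of an animal. The fibroblast marker Dcn had 9, 15 and 13 in each fraction of animals 9874, 9843 and 9596, and 36 in animal 531. Animals 186 and 270 had 24 against 14 and 351 against 299. Counts could also lie near each other in genes with more reads. The phagocyte marker Csf1r had 98 and 66, 799 and 352, 262 and 209, and 493 and 472 in HA IP and flow-through of WT SCI. Whether HA IP counts include flow-through reads was not tested, so the fractions may not be independent. Equal counts give a difference set by library depth alone, −2.48, −1.80, −1.82 and −3.09 for Dcn.

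The gene that was deleted, Stat3, lies on the minus strand of chromosome 11 (100885098 to 100939540, GRCm38), and every STAT3-CKO SCI animal had less of its RNA in HA IP. HA IP levels were 401, 315, 153 and 199 CPM in WT SCI and 44.0, 57.6 and 72.0 CPM in STAT3-CKO SCI. In flow-through the values were 88.8, 143.5, 146 and 264, against 69.6, 122 and 135 CPM. The HA IP values of the genotypes did not overlap, whereas the flow-through values did. The genotype effect on Stat3 was −2.20 ± 0.42 (log2 ± SE, edgeR adjusted p = 0.00813, or 0.0593 to 0.143 without 1 of the 3 STAT3-CKO SCI animals) in HA IP and −0.59 ± 0.41 (adjusted p = 0.795) in flow-through. The HA IP minus flow-through difference was below that of every WT SCI animal in all 3 STAT3-CKO SCI animals, but the interaction did not pass over all genes (−1.51 ± 0.49, adjusted p = 0.476). The deposited count is 1 value for the gene, and the labels do not say which exons are floxed, so this is a partial check of genotype.

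Astrocyte genes marked the HA IP of both genotypes. In WT SCI, 21 of 24 homeostatic astrocyte genes were higher in HA IP than in flow-through, against 10.6% of all 10814 genes tested, with a median of 2.19 on the log2 scale (0.12 over all genes). In STAT3-CKO SCI, 23 of 24 were higher, against 7.64% of all genes, with a median of 2.64 (−0.02 over all genes). Microglia and macrophage markers were lower in HA IP for 19 of 20 in WT SCI (background 7.2%) and 18 of 20 in STAT3-CKO SCI (background 7.71%), with medians of −1.79 and −1.45. Neuron markers were lower for 13 of 17 and 14 of 17, among them the synaptic gene Snap25 (−1.68 ± 0.24 and −2.23 ± 0.27). Some phagocyte and neuron markers had equal or nearly equal counts in both fractions, so their differences and interactions largely follow library depth. The neuron marker Gad2 had 7, 7 and 9 in each fraction of animals 9935, 9874 and 9596, and 32 in animal 186. It had 16 against 14 in animal 9843, 41 against 31 in 531 and 293 against 258 in 270. HA IP was not astrocyte RNA alone: 9 of 11 and 8 of 11 oligodendrocyte precursor markers were higher there, with the transcription factor gene Olig1 at 2.76 ± 0.17 and 2.20 ± 0.19, and 7 of 15 and 6 of 15 oligodendrocyte markers were too. Lymphocyte, endothelial and ependymal cells are represented by 2 tested markers each and blood by 0 of 11, so little can be read of those cells.

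By the blocked edgeR fit of the counts, the genotype changed the HA IP excess of 9 genes, which is 0.0832% of the genes tested: the excess was smaller in STAT3-CKO SCI for 7 (0.0647%) and larger for 2 (0.0185%). At an unadjusted p under 0.05 there were 746 genes, 515 with a smaller and 231 with a larger excess. The test of the within-animal log2 differences themselves by limma called 0 genes (632 at an unadjusted p under 0.05), and DESeq2 called 22, 7 of the 9 among them. The 7 are the protease inhibitor Serpina3n, the complement gene C3, the metallothionein Mt1, the lipid carrier Apod, the microtubule-binding Clip3, and the low genes Haus1 and 2810408M09Rik. The 2 are Cd74, the class II invariant chain, and Serinc5, a multipass membrane protein gene. Without STAT3-CKO SCI animal 531 or 270 the edgeR test called 0 genes (484 and 554 at an unadjusted p under 0.05), and without animal 186 it called Serpina3n only. Without WT SCI animal 9874 or 9843 it called 4 genes, among them Serpina3n and Serinc5 each time. In all 9 genes the 3 STAT3-CKO SCI differences lay on 1 side of the 4 WT SCI differences, as they did for 294 genes from above (2.72%) and 569 from below (5.26%).

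Serpina3n (chromosome 12, 104406729 to 104414329, plus strand) encodes a secreted serpin of reactive astrocytes. Its HA IP levels were 3361, 4843, 2982 and 5782 CPM in WT SCI and 372, 135.5 and 157 CPM in STAT3-CKO SCI. Flow-through held 1352, 1458, 1350 and 1726, against 309, 279 and 245 CPM. Both fractions were lower in every STAT3-CKO SCI animal, and HA IP was lower by more. Within animals, HA IP minus flow-through was 1.31, 1.73, 1.14 and 1.74 (log2) in WT SCI and 0.27, −1.04 and −0.64 in STAT3-CKO SCI. The genotype effect was −4.26 ± 0.37 in HA IP (edgeR adjusted p = 7.91e-08) and −2.41 ± 0.34 in flow-through (adjusted p = 0.0005), and the interaction −1.97 ± 0.29 (adjusted p = 0.00943). Mouse Serpina3 genes are close copies of each other, so reads may be split between them. In 13 of 17 alternative settings the interaction kept its call.

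C3, the central protein of the complement cascade (chromosome 17, 57203970 to 57228136, minus strand), had more RNA in HA IP in every WT SCI animal and more in flow-through in every STAT3-CKO SCI animal. HA IP levels were 160, 448, 245.5 and 166 CPM in WT SCI and 18.5, 33.4 and 37.6 CPM in STAT3-CKO SCI. Its flow-through values were 69.1, 89.2, 109 and 27.2, against 40.9, 76.2 and 87.6 CPM. The HA IP values did not overlap, and the flow-through values of STAT3-CKO SCI lay within the range of WT SCI. HA IP exceeded flow-through by 1.88 ± 0.33 in WT SCI (edgeR adjusted p = 0.00056) and was below it by −1.19 ± 0.35 in STAT3-CKO SCI (adjusted p = 0.0243, but 0.0845 at equal depth and 0.104 to 0.165 without 1 of the STAT3-CKO SCI animals). The genotype effect in HA IP was −3.09 ± 0.50 (adjusted p = 0.00169), and the interaction was −3.07 ± 0.48 (adjusted p = 0.011), kept in 11 of 17 settings.

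Mt1, which binds zinc and copper and rises with injury and glucocorticoids (chromosome 8, 94179082 to 94180327, plus strand), was among the most abundant HA IP transcripts. Its HA IP levels were 29820, 24890, 16780 and 18210 CPM in WT SCI and 7389, 5006 and 1485 CPM in STAT3-CKO SCI. The unbound RNA showed 1973, 2668, 1955 and 2444, against 1527, 1269 and 392 CPM. Every STAT3-CKO SCI value lay under every WT SCI value in both fractions. The HA IP excess was 3.28 ± 0.16 in WT SCI and 2.06 ± 0.17 in STAT3-CKO SCI, an interaction of −1.22 ± 0.22 (edgeR adjusted p = 0.0392, kept in 5 of 17 settings). Its neighbour Mt2, chosen after its values were seen, had −0.95 ± 0.21 (adjusted p = 0.191), and the reads of metallothionein genes are hard to assign because they are alike.

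Apod, a lipocalin that carries lipids (chromosome 16, 31296192 to 31314808, minus strand), stood at 3743, 5696, 3773 and 3350 CPM in HA IP of WT SCI and at 765, 2323 and 2286 CPM in STAT3-CKO SCI. In flow-through the values were 1539, 2013, 1125 and 1936, against 1339, 2044 and 2201 CPM. The groups were apart in HA IP and overlapped in flow-through. The interaction was −1.51 ± 0.27 (edgeR adjusted p = 0.0385), while the genotype effect in HA IP alone did not pass (−1.21 ± 0.34, adjusted p = 0.131). Apod is also known from oligodendrocytes, whose major transcript Mbp fell by 1.25 ± 0.25 on the log2 scale in HA IP (adjusted p = 0.0133, lost without animal 9843, 186 or 531 with up to 0.152) and had −0.70 ± 0.25 in flow-through (adjusted p = 0.513). The summed level of 15 oligodendrocyte markers was 35697 to 55973 CPM (WT SCI) against 20857 to 25395 CPM (STAT3-CKO SCI) in HA IP, and 23710 to 30858 against 14698 to 19048 CPM in flow-through, with no overlap in either fraction. The part of oligodendrocyte RNA in the Apod result, or in other genes lower in HA IP, was not tested.

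Clip3 (chromosome 7, 30291728 to 30308367, plus strand) stood at 1385, 1932, 1136 and 976 CPM in HA IP of WT SCI and at 653, 684.5 and 659.5 CPM in STAT3-CKO SCI. Flow-through held 434, 446, 411 and 325, against 454, 603 and 524 CPM. HA IP was lower and flow-through higher in every STAT3-CKO SCI animal. Neither genotype effect passed on its own (−1.03 ± 0.28, edgeR adjusted p = 0.109, and 0.39 ± 0.27, adjusted p = 0.802), and the interaction was −1.37 ± 0.26 (adjusted p = 0.0414). Apod and Clip3 each kept the call in 5 of 17 settings.

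The 2 low genes rest on few counts. The unnamed transcript 2810408M09Rik had 5 counts in all 4 WT SCI flow-through libraries against 880 in HA IP, and 95 against 414 in STAT3-CKO SCI (edgeR adjusted p = 0.00943). Haus1, a subunit of the augmin complex of the mitotic spindle, had 2 counts against 280 in WT SCI and 77 against 237 in STAT3-CKO SCI (adjusted p = 0.0392). Both fell outside the naming rule and were chosen after their values were seen, and the size of their fitted interactions depends on those few counts.

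Cd74 escorts class II molecules to the endosome (chromosome 18, 60803848 to 60812652, plus strand). It was higher in both fractions of STAT3-CKO SCI, and by more in HA IP. HA IP levels were 23.7, 143, 75.1 and 37.9 CPM in WT SCI and 406, 1531 and 1184 CPM in STAT3-CKO SCI. Its flow-through values were 78.9, 392, 269 and 143.5, against 389, 1211 and 1576 CPM. The groups did not overlap in HA IP, and in flow-through STAT3-CKO animal 186 lay just under WT SCI animal 9874. HA IP minus flow-through was −1.71, −1.45, −1.83 and −1.90 (log2) in WT SCI and 0.06, 0.34 and −0.41 in STAT3-CKO SCI. On the CPM scale Cd74 RNA was thus lower in HA IP than in flow-through in every WT SCI animal (−1.73 ± 0.21, edgeR adjusted p = 1.05e-05). It was near equal in the fractions of STAT3-CKO SCI. Its counts in HA IP and flow-through were 12 and 8, 225 and 101, 74 and 74, and 97 and 95 in WT SCI. In STAT3-CKO SCI they were 1032 and 190, 10045 and 842, and 23477 and 7124. Counts in animals 9843 and 9596 were equal or nearly so, and their differences are set by library depth. The genotype effect was 3.87 ± 0.61 in HA IP (adjusted p = 0.00282, or 0.0776 with no filter on low counts) and 2.24 ± 0.59 in flow-through (adjusted p = 0.343, but 0.0438 without animal 186 and 0.0435 by DESeq2), and the interaction 1.73 ± 0.29 (adjusted p = 0.0238, kept in 11 of 17 settings).

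Serinc5 (chromosome 13, 92611091 to 92711947, plus strand) differed in opposite directions in the fractions. HA IP levels were 183.5, 101, 131 and 197 CPM in WT SCI and 350, 380 and 311 CPM in STAT3-CKO SCI. The unbound RNA showed 187.5, 202, 167 and 226.5, against 75.7, 105 and 89.4 CPM. STAT3-CKO SCI lay above WT SCI in HA IP and below it in flow-through, with no overlap in either. HA IP exceeded flow-through by 1.94 ± 0.28 in STAT3-CKO SCI (edgeR adjusted p = 7.69e-05), and the interaction was 2.35 ± 0.37 (adjusted p = 0.011, kept in 11 of 17 settings). The genotype effects in HA IP (1.18 ± 0.31, adjusted p = 0.0993) and flow-through (−1.12 ± 0.34, adjusted p = 0.38) did not pass on their own.

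**Figure D1:**
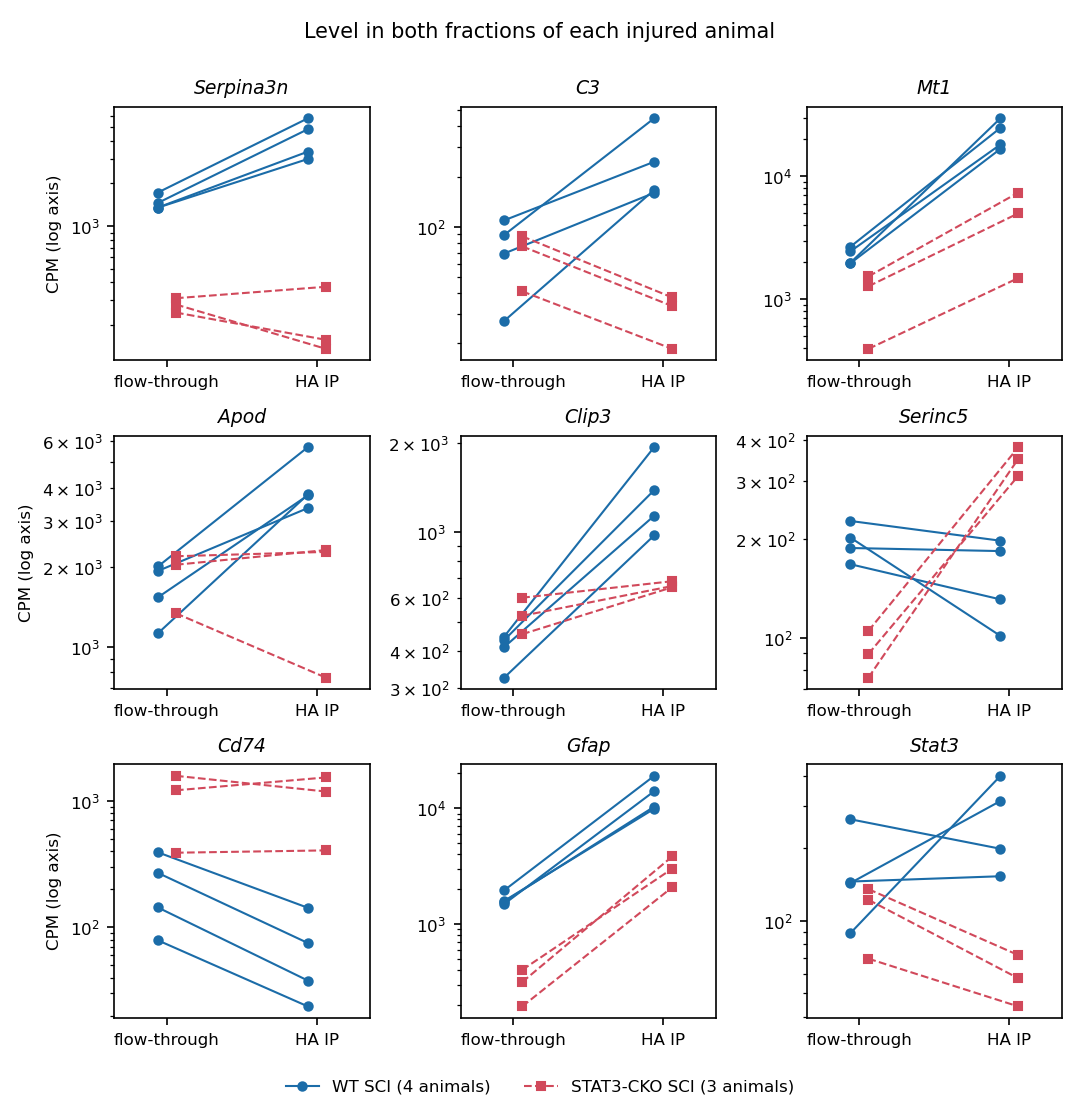
Levels of 9 genes in CPM (log axis) in the flow-through and HA IP of each injured animal, with a line joining the fractions of 1 animal (circles and solid lines WT SCI, squares and dashed lines STAT3-CKO SCI). The lines of C3 and Serinc5 run in opposite directions in the genotypes, those of Gfap run parallel, and those of Cd74 slope down in the 4 WT SCI animals and lie near level in the 3 STAT3-CKO SCI animals.

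Genotype effects were also estimated within each fraction, by an unblocked fit that treats both libraries of an animal as independent. Between genotypes 57 genes were called in HA IP, 40 lower (0.37%) and 17 higher (0.157%), and 4 in flow-through, all lower (0.037%). Without animal 186, 531 or 270, the HA IP count was 30, 15 and 20. With all 22 libraries in the fit it was 283, and the larger part was higher (178) and not lower (105). The 4 were Gfap, Timp1, Serpina3n and A2m, and each was also lower in HA IP. A2m, a protease inhibitor gene, was named after its values were seen.

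Gfap, the intermediate filament of reactive astrocytes (chromosome 11, 102887336 to 102900912, minus strand), stood at 19050, 14040, 10320 and 9904 CPM in HA IP of WT SCI and at 3008, 3832 and 2078 CPM in STAT3-CKO SCI. In flow-through the values were 1953, 1489, 1558 and 1583, against 401, 315 and 194 CPM. Each fraction was lower in every STAT3-CKO SCI animal. The genotype effect was −2.16 ± 0.31 in HA IP (edgeR adjusted p = 0.000483) and −2.45 ± 0.32 in flow-through (adjusted p = 0.000164). HA IP exceeded flow-through by 2.97 ± 0.16 in WT SCI and 3.31 ± 0.19 in STAT3-CKO SCI, and the interaction of 0.34 ± 0.23 did not pass (adjusted p = 0.843), with a 95% interval of −0.13 to 0.82. A loss of HA IP excess of the size seen for C3 or Serpina3n lies outside that interval.

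Timp1, an inhibitor of metalloproteinases, fell by 5.17 ± 0.62 on the log2 scale in HA IP (edgeR adjusted p = 3.59e-05) and by 4.30 ± 0.69 in flow-through (adjusted p = 0.0033, lost at equal depth with 0.436, with 22 libraries with 0.0922, and without animal 531 or 270 with 0.0755 and 0.109). Its HA IP levels were 633, 596, 359 and 290 CPM in WT SCI and 14.6, 19.5 and 5.45 CPM in STAT3-CKO SCI. Flow-through held 335, 77.6, 32.8 and 80.0, against 10.2, 4.32 and 5.09 CPM. WT SCI animal 9935, the shallowest, was the highest of the flow-through values. The interaction did not pass (−1.48 ± 0.63, adjusted p = 0.641).

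A2m showed the reverse order, with flow-through lower by more. It stood at 712, 495.5, 324 and 585 CPM in HA IP of WT SCI and at 123, 87.7 and 142 CPM in STAT3-CKO SCI. Its flow-through values were 108.5, 136, 149 and 207, against 16.4, 10.1 and 17.3 CPM. The genotype effect was −2.17 ± 0.35 in HA IP (edgeR adjusted p = 0.00169, or 0.0571 without animal 531) and −3.36 ± 0.41 in flow-through (adjusted p = 9.53e-05), and the interaction of 1.30 ± 0.42 did not pass (adjusted p = 0.476). Within animals the STAT3-CKO SCI differences (2.86, 3.04 and 3.00) lay above those of WT SCI (2.71, 1.86, 1.11 and 1.5).

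Hspb1, a small heat shock protein, fell by 5.05 ± 0.75 in HA IP on the log2 scale (edgeR adjusted p = 0.00136, lost without animal 531 or 270 with 0.0571 and 0.0676, and with no filter with 0.0558) from 556.5, 570, 305 and 359 CPM to 18.9, 8.54 and 13.6 CPM. Flow-through held 543 CPM in animal 9935 against 50.4, 51.0 and 39.3 CPM in the other 3 WT SCI animals, and 18.4, 5.75 and 12.8 CPM in STAT3-CKO SCI. The flow-through effect (−3.60 ± 0.78, adjusted p = 0.173, but 0.0281 to 0.0447 without animal 9596, 9843 or 9874, 0.0261 with 22 libraries and 0.00706 by DESeq2) and the interaction (−2.11 ± 0.69, adjusted p = 0.476) did not pass. Vim, the second intermediate filament gene of reactive astrocytes, passed in neither fraction (−1.05 ± 0.32, adjusted p = 0.175, and −0.57 ± 0.32, adjusted p = 0.715) and its interaction was −0.56 ± 0.32 (adjusted p = 0.79).

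**Figure D2:**
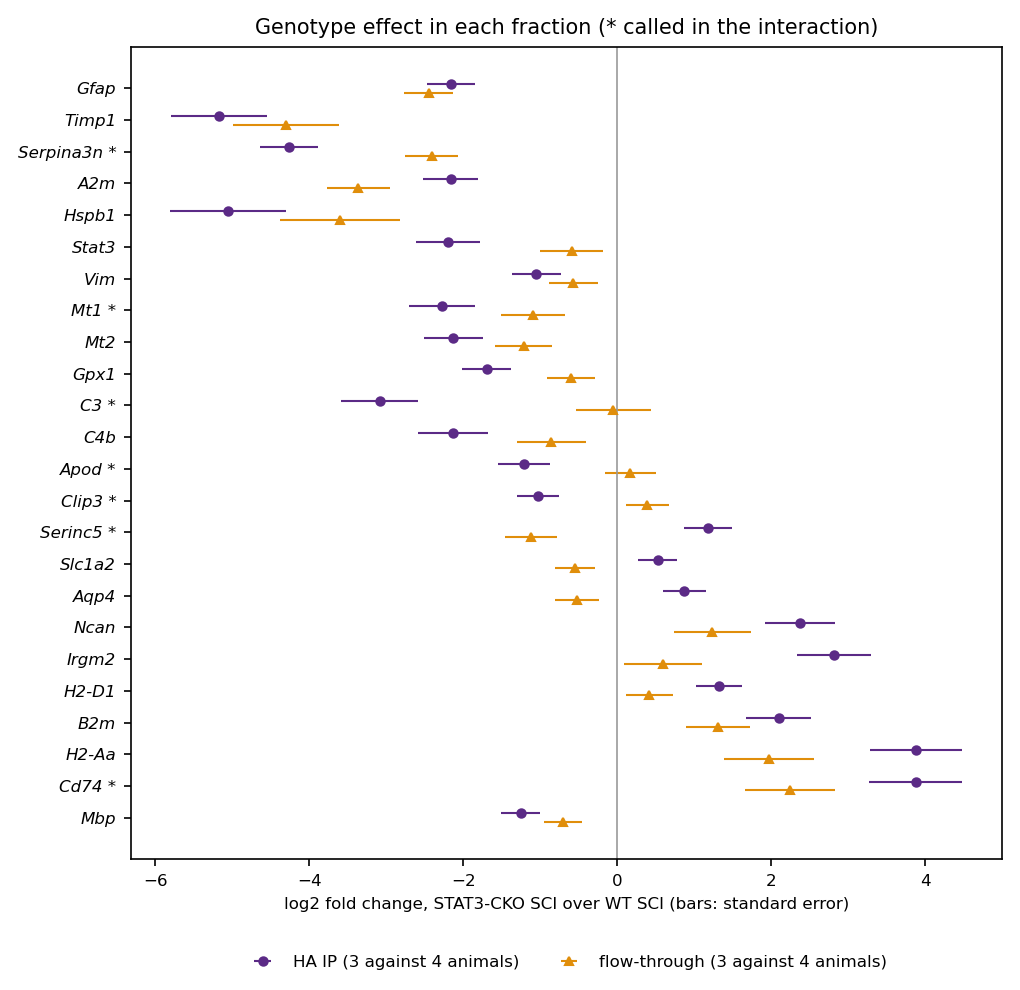
Genotype effect of 24 genes (log2 fold change of STAT3-CKO SCI over WT SCI, points, with standard errors as bars) in HA IP (circles) and flow-through (triangles), 3 against 4 animals in each. Among genes lower in both fractions, Gfap and A2m have the flow-through point left of the HA IP point. Genes higher in HA IP, such as Cd74 and Irgm2, have it there too. C3 has its flow-through point near 0, and Serinc5 has its points on opposite sides of 0.

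Genes of the STAT3 cytokine response, a list of 30 of which 25 could be tested, had a median interaction of −0.82, against −0.13 over all genes. Of these 1 was called, Serpina3n (0.0832% of all genes were called), and within animals 5 members lay below all WT SCI animals (5.26% of all genes) and 1 above (2.72%). In HA IP alone 8 of the 25 were lower (0.37% of all genes), and in flow-through 4 (0.037%). The list median of HA IP minus flow-through was 1.30, 1.73, −0.24 and 0.64 (log2) in WT SCI and 0.00, −0.41 and −0.73 in STAT3-CKO SCI, so that WT SCI animal 9843 lay below STAT3-CKO SCI animal 186 and the genotypes overlapped. Besides those described, Lcn2, a lipocalin that binds siderophores, was at 15.8, 103, 20.3 and 39.5 CPM in HA IP of WT SCI and at 0, 0 and 1.51 CPM in STAT3-CKO SCI (−6.03 ± 1.23, edgeR adjusted p = 0.0145, lost without animal 9874, 186 or 531 with up to 0.163). Its 4 flow-through counts in WT SCI leave the interaction poorly measured (adjusted p = 0.274). Cebpd, a transcription factor of the acute phase response chosen after its values were seen, was lower in HA IP by −3.54 ± 0.71 (adjusted p = 0.0118, lost without animal 9935, 186 or 270 with up to 0.189), with an interaction of −0.76 ± 0.79 (adjusted p = 0.915).

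The 11 tested pan-reactive astrocyte genes, which share Serpina3n, Lcn2, Timp1, Hspb1, Osmr, Cp, S1pr3 and Gfap with that list, had a median interaction of −0.98. The list median of HA IP minus flow-through was 1.31, 2.57, 1.84 and 1.74 (log2) in the WT SCI animals and 0.27, 0.20 and 0.08 in the STAT3-CKO SCI animals. No STAT3-CKO SCI animal reached the lowest WT SCI animal. Of the 11 members edgeR called 1, Serpina3n (0.0647% of all genes were called lower). At an unadjusted p under 0.05 there were 4, all lower, and DESeq2 called 1 and limma 0. Within animals 2 of the 11 were separated downward (5.26% of all genes) and 0 upward (2.72%).

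Of 31 genes of JAK-STAT signalling 20 were tested, and edgeR called 0 in the interaction (5 at an unadjusted p under 0.05, 0 by DESeq2 and 0 by limma), with a median of −0.08. The ligand and receptor genes gave no call: Il6st, the gp130 subunit, had 1.11 ± 0.45 (adjusted p = 0.619). Among the transcription factors, Stat5b had −2.11 ± 0.74 (adjusted p = 0.536). Il6st and Stat5b were chosen after their values were seen.

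Socs3, the feedback inhibitor, was at 27.6, 9.50, 22.3 and 22.7 CPM in HA IP of WT SCI and at 0.79, 1.22 and 1.31 CPM in STAT3-CKO SCI. In flow-through it had 8 counts in all 4 WT SCI libraries and 20 in STAT3-CKO SCI. The HA IP effect of −4.11 ± 1.05 missed the threshold (edgeR adjusted p = 0.0796, or 0.0125 with all 22 libraries in the fit), and so did the interaction (−2.76 ± 1.11, adjusted p = 0.619).

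STAT dimers bind a palindrome of TTC and GAA around a short spacer, searched here as TTCNNNGAA, which is its own reverse complement, in the 250 bases before each RefSeq gene start (GRCm38.p6). Among genes with such a window, 2197 of 27025 symbols held it (8.13%), as did 583 of 8277 tested genes (7.04%). None of the 5 genes with a smaller HA IP excess that had a window held it, nor did any of the 11 pan-reactive genes, whereas 4 of 20 STAT3 cytokine response genes did. Windows of 69 bases around the match, on the strand of the gene and with the palindrome in capitals, are shown for Socs3, which has the lowest interaction among the named genes that hold it, and for Irgm2, an interferon-induced GTPase with a positive one, whose window was chosen after its values were seen. They lie at chr11:117969482-117969550 (minus strand) and chr11:58214872-58214940 (plus strand).
Socs3: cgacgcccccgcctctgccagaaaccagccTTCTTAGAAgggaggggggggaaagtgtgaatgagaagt
Irgm2: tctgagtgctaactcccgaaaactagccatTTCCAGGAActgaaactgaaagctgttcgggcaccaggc
The match begins 154 bases before the start of Socs3 and 75 bases before that of Irgm2, and a match describes the sequence and is not evidence of binding.

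Homeostatic astrocyte genes had the opposite sign from pan-reactive ones. The fitted HA IP excess was larger in STAT3-CKO SCI for 19 of 24, with a median interaction of 0.61 against −0.13 over all genes, where 4634 of 10814 were positive. Within animals 7 of 24 lay above all WT SCI animals and 0 below, beside 2.72% and 5.26% of all genes. None was called by edgeR (11 at an unadjusted p under 0.05, all with a larger excess, 1 by DESeq2 and 0 by limma). Between genotypes edgeR called 0 of 24 in HA IP (10 higher and 1 lower at an unadjusted p under 0.05). It called 0 in flow-through (1 higher and 3 lower). Their summed level overlapped in HA IP (24686 to 41168 CPM in WT SCI, 33757 to 40399 in STAT3-CKO SCI). It also overlapped in flow-through (10031 to 13803 and 5545 to 11796 CPM). The median HA IP minus flow-through of the list was 2.35, 2.12, 1.98 and 1.67 (log2) in WT SCI and 2.49, 2.49 and 3.08 in STAT3-CKO SCI, without overlap.

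Slc1a2, the main glutamate transporter of astrocytes, had the smallest p of that list. It stood at 3923, 2955, 2641 and 3550 CPM in HA IP of WT SCI and at 5212, 4420 and 4437 CPM in STAT3-CKO SCI. The unbound RNA showed 809, 667, 659 and 957.5, against 602, 585 and 407 CPM. HA IP was higher and flow-through lower in every STAT3-CKO SCI animal. The HA IP excess was 2.07 ± 0.15 in WT SCI and 3.16 ± 0.18 in STAT3-CKO SCI, an interaction of 1.09 ± 0.22 (edgeR adjusted p = 0.0882, DESeq2 0.0221). The water channel Aqp4 had 1.33 ± 0.33 (adjusted p = 0.263), with 1600, 1428, 1277 and 1426 CPM in HA IP of WT SCI and 1741, 2347 and 3756 CPM in STAT3-CKO SCI. Slc4a4, a bicarbonate transporter (1.22 ± 0.30, adjusted p = 0.258), and Kcnj10, a potassium channel (0.85 ± 0.27, adjusted p = 0.471), were chosen after their values were seen and were likewise separated between the genotypes. Aldh1l1, a folate enzyme used as an astrocyte marker, was not separated (0.43 ± 0.63, adjusted p = 0.948), nor was the second glutamate transporter Slc1a3 (1.41 ± 0.60, adjusted p = 0.641).

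Genes of antigen presentation had mostly positive interactions. All 8 tested of 11 genes of the class II pathway had a positive interaction (median 1.09), as did 4634 of all 10814 genes. Of the 8, 3 were separated upward (2.72% of all genes) and 1, Cd74, was called higher (0.0185%). Peptide-binding chain gene H2-Aa, chosen after its values were seen, stood at 3.95, 28.5, 24.4 and 8.21 CPM in HA IP of WT SCI and at 69.2, 351 and 322 CPM in STAT3-CKO SCI. In flow-through it stood at 19.7, 101, 87.4 and 31.7 CPM, then at 115, 252 and 355 CPM. All STAT3-CKO SCI values lay above all WT SCI values in each fraction. The WT SCI counts of H2-Aa were 2, 45, 24 and 21 in HA IP and 2, 26, 24 and 21 in flow-through. Those of STAT3-CKO SCI were 176, 2305 and 6385, and 56, 175 and 1605. Equal counts in animals 9935, 9843 and 9596 leave their differences set by library depth. The genotype effect was 3.88 ± 0.60 in HA IP (edgeR adjusted p = 0.00108) and 1.97 ± 0.59 in flow-through (adjusted p = 0.37), with an interaction of 1.78 ± 0.46 (adjusted p = 0.292). Across the list the median of HA IP minus flow-through was −2.20, −1.63, −1.73 and −1.73 in WT SCI and −0.60, −0.15 and −0.68 in STAT3-CKO SCI.

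Class I genes had a positive interaction for 12 of 13 tested (median 0.85), with 5 separated upward (2.72% of all genes) and 0 downward (5.26%), and edgeR called 0 (4 at an unadjusted p under 0.05, 0 by DESeq2 and 0 by limma). The heavy chain H2-D1 was at 262.5, 445, 274 and 230 CPM in HA IP of WT SCI and at 671, 833.5 and 766 CPM in STAT3-CKO SCI. In flow-through the values were 562, 1012, 673 and 523, against 661, 854 and 1252 CPM, and these overlapped. Its genotype effect in HA IP was 1.32 ± 0.30 (edgeR adjusted p = 0.0368, lost with up to 0.325 without any 1 animal except 9874) and its interaction 0.95 ± 0.27 (adjusted p = 0.341). B2m, the light chain, was higher in HA IP by 2.10 ± 0.42 (adjusted p = 0.0136, lost without animal 9843, 9596, 531 or 270 with up to 0.129, and with no filter with 0.104), with 1.31 ± 0.42 in flow-through (adjusted p = 0.431), and the peptide pump Tap1 had the largest interaction of the list (1.84 ± 0.68, adjusted p = 0.576). B2m and Tap1 were chosen after their values were seen. H2 genes are close copies, and their reads may be split.

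Interferon-induced GTPases, which act against intracellular pathogens, were positive for 11 of 12 (median 1.14), with 1 separated upward (2.72% of all genes), and edgeR called 0 (3 at an unadjusted p under 0.05, 1 by DESeq2 and 0 by limma). Their list median of HA IP minus flow-through was 0.88, 0.34, 2.07 and 0.98 (log2) in WT SCI and 2.63, 2.00 and 1.82 in STAT3-CKO SCI, so WT SCI animal 9843 lay within the STAT3-CKO SCI range. Irgm2 stood at 17.8, 58.3, 36.5 and 31.3 CPM in HA IP of WT SCI and at 204, 262 and 305.5 CPM in STAT3-CKO SCI. Flow-through held 9.87, 81.45, 29.1 and 37.8, against 43.0, 44.6 and 97.6 CPM. The genotypes were far apart in HA IP and overlapped in flow-through. Its genotype effect was 2.81 ± 0.48 in HA IP (edgeR adjusted p = 0.00249) and 0.59 ± 0.51 in flow-through (adjusted p = 0.855), and its interaction 2.23 ± 0.51 (adjusted p = 0.191, DESeq2 0.00589). Iigp1, chosen after its values were seen, was higher in HA IP by 4.03 ± 0.65 (adjusted p = 0.00149, or 0.0619 without animal 270), with 2.31 ± 0.78 in flow-through (adjusted p = 0.476). Type I interferon response genes had a median interaction of 0.32 over 20 members, 15 of them positive, and edgeR called 0 (1 at an unadjusted p under 0.05). Their median genotype effect was −0.09 in HA IP and −0.68 in flow-through. The positive interaction thus went with lower flow-through levels and not with higher HA IP levels.

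Microglia and macrophages also make class II and interferon-induced transcripts, so their markers are given beside these genes. All 20 markers were tested, 17 had a positive interaction (median 0.38) and 6 were separated upward, a larger share than the 2.72% of all genes, with Csf1r, the receptor of a macrophage growth factor, at 0.64 ± 0.28 (edgeR adjusted p = 0.647). The summed level of the 20 markers was 5620 to 16198 CPM in HA IP of WT SCI and 7020 to 10354 CPM in STAT3-CKO SCI, and 21459 to 51420 and 24335 to 29200 CPM in flow-through. HA IP over flow-through of that sum was −1.93, −1.70, −1.67 and −1.80 (log2) in WT SCI and −1.79, −1.50 and −1.61 in STAT3-CKO SCI. The ranges of the summed level overlap in each fraction, and 0 of 20 markers were called between genotypes in HA IP by edgeR (0 at an unadjusted p under 0.05, 0 by DESeq2). Aif1, a calcium-binding protein of these cells, stood at 29.6, 86.8, 99.4 and 105 CPM in HA IP of WT SCI and at 83.3, 98.8 and 56.9 CPM in STAT3-CKO SCI. The part of phagocyte RNA in the antigen presentation result was not tested beyond these values.

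**Figure D3:**
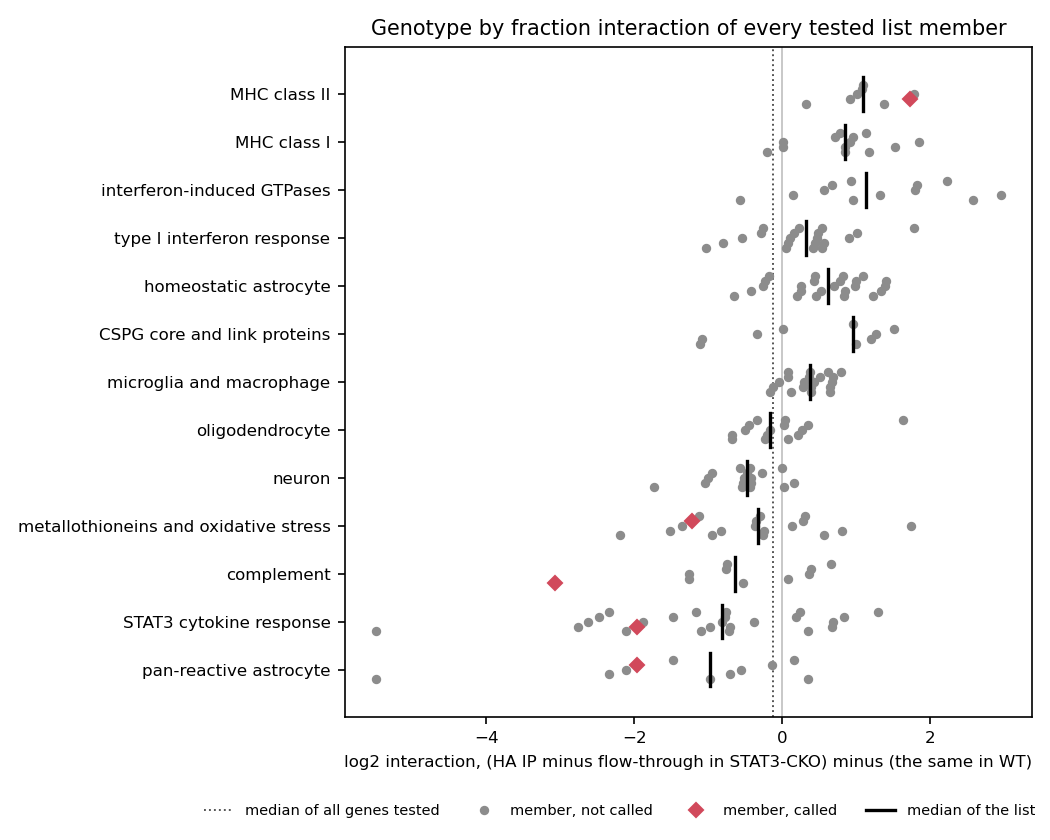
Interaction (log2, horizontal axis) of every tested member of 13 gene lists, with called members as red diamonds, list medians as black bars and the median of all genes tested as a dotted line. Class II, class I, GTPase and homeostatic astrocyte genes lie mostly right of 0, and pan-reactive and STAT3 cytokine response genes mostly left of it.

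Metallothionein and oxidative stress genes had 1 call, Mt1, among 18 tested (median −0.33; 0.0647% of all genes were called lower), with 6 separated downward (5.26% of all genes) and 1 upward (2.72%). Gpx1, a peroxidase chosen after its values were seen, was lower in HA IP (−1.69 ± 0.32, edgeR adjusted p = 0.00778, lost without animal 531 or 270 with 0.0916 and 0.0629) from 1050, 986.5, 667 and 697 CPM to 270, 285 and 234 CPM. Its flow-through held 404.5, 873, 983 and 494 CPM in WT SCI and 413.5, 536.5 and 420 CPM in STAT3-CKO SCI, which overlap. The interaction of Gpx1 was −1.13 ± 0.34 (adjusted p = 0.413). Of 10 tested complement genes edgeR called C3 alone (0.0647% of all genes were called lower). At an unadjusted p under 0.05 there were 2, both lower, and DESeq2 called 1 and limma 0. C4b, the partner of C3 in the classical pathway, had −1.26 ± 0.44 (edgeR adjusted p = 0.543). It was lower in HA IP by −2.13 ± 0.46 (adjusted p = 0.0197, lost without animal 9874, 9843, 186 or 531 with up to 0.233). C4b was chosen after its values were seen. Median interaction of the complement list was −0.64, with 2 members separated downward (5.26% of all genes).

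Chondroitin sulfate proteoglycans, matrix molecules known to restrain axon growth, had 9 of 10 core and link protein genes tested. In the interaction edgeR called 0 (3 at an unadjusted p under 0.05, 0 by DESeq2 and 0 by limma), with a median of 0.95 against 0.50 over the 8 better measured members. The list median of HA IP minus flow-through was 2.49, 1.00, 0.90 and 0.10 (log2) in WT SCI and 1.43, 1.49 and 1.84 in STAT3-CKO SCI, so the genotypes overlapped and WT SCI animal 9935 lay above every STAT3-CKO SCI animal. Ptprz1, a receptor phosphatase that is also a proteoglycan, had 1.5 ± 0.43 (adjusted p = 0.345) and Vcan, versican, 1.27 ± 0.46 (adjusted p = 0.568). They were the only 2 of the 9 separated upward (2.72% of all genes), and 0 were separated downward (5.26%). Ncan, neurocan, stood at 92.75, 239, 158 and 160 CPM in HA IP of WT SCI and at 574, 1138 and 825 CPM in STAT3-CKO SCI. In flow-through it stood at 29.6, 34.9, 10.9 and 71.0 CPM, then at 26.6, 164 and 91.2 CPM. It was higher in HA IP (2.37 ± 0.45, adjusted p = 0.00788, lost without animal 531 or 270 with 0.0997 and 0.0619), with 1.23 ± 0.51 in flow-through (adjusted p = 0.603) and an interaction of 1.19 ± 0.53 (adjusted p = 0.665). Cspg5, a transmembrane member, had −1.08 ± 0.53 (adjusted p = 0.735) and Acan, aggrecan, 0.95 ± 1.01 (adjusted p = 0.919, from 9 counts in WT SCI flow-through). In the chain synthesis list Chpf, a chondroitin polymerising factor, had the smallest p (−1.73 ± 0.51, adjusted p = 0.401). The wider axon growth inhibitory list had a median of 0.31 over 29 genes, and the permissive list −0.02 over 28, with 0 calls in each by edgeR or DESeq2 (edgeR's unadjusted p was under 0.05 for 4 and 1). Tnc, tenascin C, was too low to be tested.

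In the remaining lists edgeR called 0 genes in the interaction. Neuron markers had a median of −0.47 over 17 genes, 3 of them positive, and Uchl1, a ubiquitin hydrolase of neurons, had the smallest p (−1.0 ± 0.36, edgeR adjusted p = 0.557). Their summed level was 1052 to 1873 CPM in HA IP of WT SCI and 1231 to 2580 CPM in STAT3-CKO SCI, and 2945 to 5209 and 6517 to 9159 CPM in flow-through, where the genotypes do not overlap. Medians were −0.16 for cholesterol synthesis (18 genes), −0.16 for oligodendrocytes (15), −0.28 for oligodendrocyte precursors (11), −0.57 for immediate early genes (13) and −0.37 for the cell cycle (11). They were 0.65 for A1 astrocyte genes (9) and −0.45 for A2 astrocyte genes (6).

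**Figure D4:**
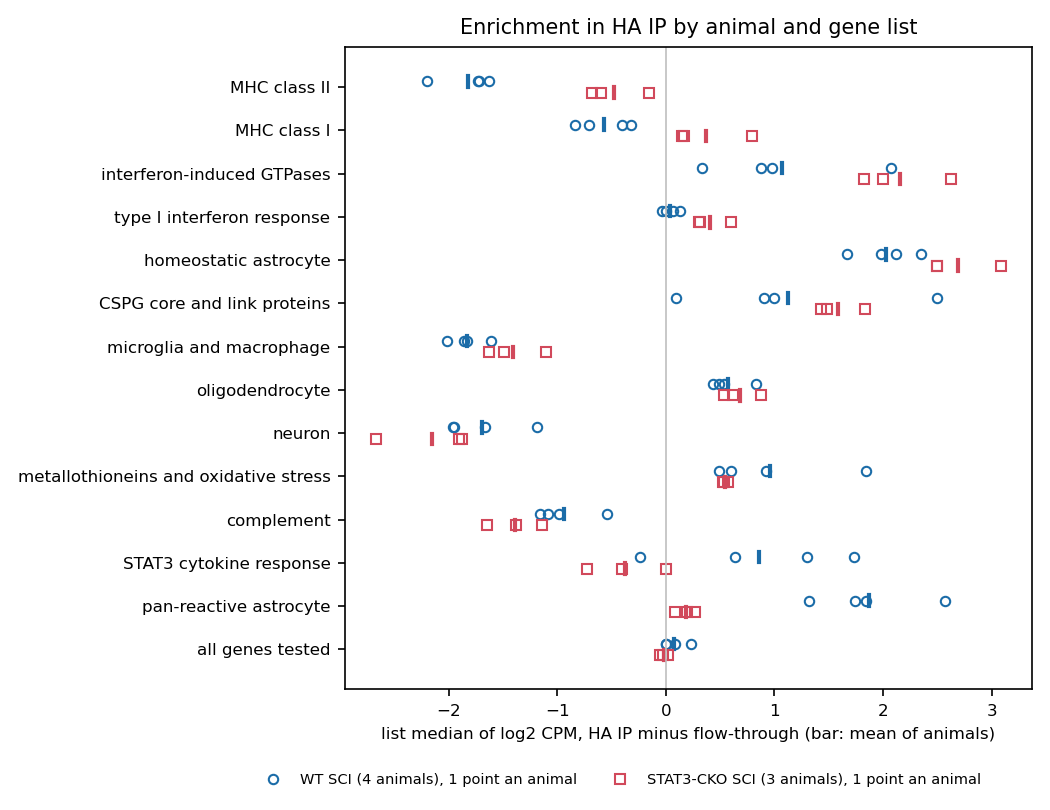
Median of HA IP minus flow-through (log2 CPM, horizontal axis) over the tested members of each list, with 1 point an animal (circles WT SCI, squares STAT3-CKO SCI) and bars at the group means. The genotypes do not overlap for class I, class II, type I interferon, homeostatic and pan-reactive astrocyte genes, whereas the median of all genes lies between −0.06 and 0.23 in every animal.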

How the data were processed

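RNA of 7 injured animals was measured in 14 libraries. The authors deposited raw read counts per gene, per the file headers, in tables of 24060 rows, and both fractions were joined by symbol and RefSeq accession because row order differs. The tables' other per-sample columns, 132 in number, stayed out. In 27 rows a date stood for a symbol, and 25 were restored. Per the labels' protocols, 5 ng of RNA was amplified and 300 ng of the cDNA was made into a library with 10 PCR cycles. CASAVA 1.8.2, mm10 and edgeR stand in the submitters' processing notes. The sources used here give no aligner, counter, annotation or strand setting, so overlapping, antisense and near-identical genes are uncertain. Rn45s, Lars2 and Mir6236 (54.3% to 98.3% of HA IP and 52.1% to 97.65% of flow-through counts) were left out of library sizes and tests.

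Genes passed filterByExpr at a minimum count of 10, TMM set the scaling, and counts were tested by the quasi-likelihood method of edgeR 4.0.16 (R 4.3.3, robust, two-sided), with Benjamini-Hochberg adjustment over all 10814 genes and a threshold of 0.05. The interaction and the HA IP against flow-through contrasts had the animal as a block, with 5 residual degrees of freedom. Genotype effects within a fraction came from an unblocked fit of all 14 libraries, since an animal has 1 genotype. That fit treats both libraries of an animal as independent. Pairing comes from the animal numbers in the titles. HA IP and flow-through deviations from the group means correlated at 0.237 to 0.499 within each of the 7 animals. With the best other animal the correlation was −0.166 to −0.034. Deviations cancel out within a group, so positive same-animal values push the others to be negative on average. Equal counts in both fractions can also raise the same-animal values. The contrast between these ranges is therefore not an independent test of the pairing. Replicate libraries differed by more than counting noise (lowest chi-square per degree of freedom 5.60), and log2 CPM used a prior count of 2. The p-values of the blocked fit measure the spread of within-animal differences between animals. Those of genotype effects within a fraction rest on an error pooled over the libraries of both fractions. The script was tested on simulated data. Positions are from GENCODE vM21 (GRCm38).

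Members and lists were chosen with earlier results of these data known. Named were up to 14 called genes per direction with the largest interaction among those with separated animals and a mean level of 4 or more (log2 CPM), up to 3 called members of each list (or that with the smallest p), and 25 fixed genes. Others are marked as chosen after their values were seen. Alternatives were RLE and TMMwsp scaling, no filter, a stricter filter, ribosomal rows kept, no block, all 22 libraries, leaving out each animal, thinning to equal depth, DESeq2 1.42.0 and limma 3.58.1 on within-animal differences. Libraries of uninjured animals entered only the fit of all 22.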

Additional observations from a re-analysis of the deposited data

Results flagged for a closer look

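The HA IP excess over flow-through differed between the genotypes, by the test of that difference, for 9 genes. On the log2 scale, as STAT3-CKO SCI minus WT SCI, the value was −1.97 for Serpina3n, −3.07 for C3, −1.51 for Apod, −1.22 for Mt1 and −1.37 for Clip3. It was 2.35 for Serinc5 and 1.73 for Cd74. The remaining values, −5.94 for Haus1 and −5.39 for 2810408M09Rik, rest on 2 and 5 counts in the flow-through of WT SCI.

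In 72 genes, those the naming rule took and those chosen after their values were seen, the 4 WT SCI animals were searched for 1 that stands apart in HA IP minus flow-through. There were 3. Rtp4, an interferon-induced chaperone of receptors, had 2.78 in animal 9935 against −1.11 to −0.63 in the others. Cspg4, the NG2 proteoglycan of oligodendrocyte precursors and pericytes, had 6.92 in animal 9935 against −0.50 to 0.52 in the others. The flow-through library of that animal, the shallowest, held 0 counts of either gene. Nkg7, a granule protein gene of cytotoxic lymphocytes, had −2.45 in animal 9874, from 7 counts in each fraction, and 0 counts in both fractions of the other 3 WT SCI animals. Chance marks about 1 in 20 groups.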

How the results depend on the processing

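Directions were steadier than calls. The 9 genes were picked for strong interactions in these same counts and had separated animals, so a change of sign was unlikely from the start. Each of the 9 called genes kept its sign in every alternative in which it was tested, and calls held in 13 of 17 for Serpina3n, 11 of 17 for C3, Cd74 and Serinc5, 9 of 16 for 2810408M09Rik, 5 of 17 for Apod, Clip3 and Mt1, and 4 of 16 for Haus1. RLE scaling, which moved the median interaction of all genes from −0.13 to −0.02, TMMwsp scaling and keeping the ribosomal rows each called 5 genes (3 lower), a stricter filter 4 (2 lower) and equal depth 6 (4 lower). The fit of 22 libraries with the replicate block called 52 (18 higher and 34 lower), which included all 9. DESeq2 called 22 (14 higher and 8 lower, so 63.6% higher against 22.2%) and 7 of the 9. Without the replicate block edgeR called 0 (0 higher and 0 lower, 349 at an unadjusted p under 0.05), and limma on within-animal differences called 0 (0 higher and 0 lower, 632). The limma test keeps the pairing of the fractions by animal number, and the unblocked test does not. Why each called 0 was not tested.

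Called between fractions were 1040 genes in WT SCI and 599 in STAT3-CKO SCI without the replicate block, 3032 and 3179 with 22 libraries, and 954 in STAT3-CKO SCI at equal depth. Between genotypes in HA IP 89 were called with no filter (29 higher and 60 lower) and 173 by DESeq2 (45 higher and 128 lower). With 22 libraries 283 were called in HA IP, 178 higher and 105 lower, so the main direction changed from that of the main fit. In flow-through 14 were called with 22 libraries (8 higher and 6 lower) and 37 by DESeq2 (6 higher and 31 lower). Genes separated downward numbered 372 with the stricter filter and 367 at equal depth. The heat shock list median (−0.13) became 0.0131 at equal depth. The cause of these changes was not tested.

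With each animal left out in turn, the interaction calls ranged from 0 (without STAT3-CKO animal 531 or 270) to 11 (without WT SCI animal 9935), with 0 to 3 higher and 0 to 8 lower. They were 1404 to 1676 for HA IP against flow-through in WT SCI, 587 to 1968 in STAT3-CKO SCI, 15 to 58 for genotype in HA IP and 3 to 6 in flow-through. Separated genes numbered 461 to 741 upward and 794 to 1013 downward, since fewer animals separate more easily. With 3 animals against 4, and 91626 to 615302 usable counts in WT SCI flow-through, low genes were measured least well there.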
